A study of Rattus norvegicus with 19 samples.

Results

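The enzymes of glycolysis, the citrate cycle and the supply of NADPH were followed through the development of the rat Leydig cell, the cell of the testis that makes testosterone. The members were 35 genes of these pathways, each read from the probe set whose single gene symbol in the platform annotation is that gene, taking the brightest where there were several. A probe set is the group of short probes with which an Affymetrix array reads 1 transcript. Of the 35 genes, 33 had such a probe set and 32 were tested, out of 14217 genes with a tested probe set in the series. Gapdh was read only by control probe sets, so its values are described without a test. The probe set of Pkm carries 2 symbols and Fh has no named probe set, so neither was analysed here.

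All cells came from Sprague-Dawley rats, and the 19 arrays fall into stem Leydig (n = 5), progenitor Leydig (n = 3), immature Leydig (n = 4), adult Leydig (n = 4) and bone stem cells (n = 3). The sources used here do not give ages, isolation or culture, and effects of these on the groups cannot be told apart from effects of stage. Nor do the labels state that replicates are separate animals or cultures. The p-values therefore rest on a spread between samples that may be technical only. The labels name no genotype or treatment, other than the cell type, that separates the groups.

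Glucose entering a cell is split by glycolysis into pyruvate, which lactate dehydrogenase reduces to lactate or the pyruvate dehydrogenase complex turns into acetyl-CoA for the citrate cycle in mitochondria. Pyruvate dehydrogenase kinases switch that complex off. NADPH, the reducing agent that cytochrome P450 enzymes and lipid synthesis draw on, is made by the pentose phosphate pathway, by malic enzyme and by the NADP-linked isocitrate dehydrogenases. Steroid synthesis in Leydig cells consumes NADPH at several steps, in mitochondria and in the endoplasmic reticulum.

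The values are signals on a linear scale, as the authors deposited them. Tests were run on log2(signal + 16), which makes the log2 change of a dim gene smaller than its true fold. A gene was called at an adjusted p under 0.05 in limma, with Benjamini-Hochberg adjustment over 31042 probe sets. Errors of means are SD and errors of log2 changes are SE. The members are bright genes. Their mean signals stand between the 48.4 and the 99.8 percentile of all probe sets with a median of 96.9, and 26 of 33 lie at or above the 90 percentile. Bright probe sets are called more often than dim ones, so the share called is given both for all probe sets and for those with a mean signal of at least 100 (n = 8929).

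Some array and marker values bear on all that follows. The ratio of 3' to 5' signal of Gapdh, a sign of RNA integrity, lay at 1.06 to 1.132 for stem arrays, 1.065 to 1.857 for progenitor arrays, 1.134 to 1.524 for immature arrays, 1.095 to 1.325 for adult arrays and 1.303 to 1.334 for bone stem arrays. That of beta-actin reached 6.346 in progenitor replicate 3. The summed signal of 8 Leydig cell markers (Star, Cyp11a1, Cyp17a1, Hsd3b1, Hsd17b3, Lhcgr, Insl3, Nr5a1) was 370.0 to 1600.3 in stem cells and 12354.8 to 32220.1 in the 3 later Leydig stages together. The bone stem cells had 83.4 to 613.9 for the same sum. Markers of leukocytes (10 genes) summed to 565.5 to 1033.7 (stem), 4883.9 to 6393.0 (progenitor), 2690.1 to 6289.2 (immature) and 1493.7 to 3783.4 (adult) over the Leydig stages, and to 13027.6 to 13940.5 in bone stem cells. Of 5 measured markers of bone and marrow stroma 4 were lower in stem Leydig than in bone stem cells, with sums of 212.9 to 555.2 in stem Leydig and 1565.8 to 2406.6 in bone stem cells. In such bulk samples fewer cells of a type and less RNA per cell cannot be told apart.

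Among the 4 Leydig stages, 27 of the 32 tested members differed in a moderated F-test (84.4%), against 50.7% of all probe sets and 77.3% of the bright ones. Aldoa, Pgam1, Cs, Idh3a and Mdh2 did not pass it. Of the 33 measured members, 20 had their highest stage mean in adult cells, 11 in stem cells, 1 in progenitor cells and 1 in immature cells. The progenitor and immature stages were the lowest for 8 members each, stem cells for 14 and adult cells for 3. The share of all probe sets highest or lowest at each stage was not counted, so these counts have no background. They also rank the untested Gapdh and the members that did not pass the F-test, such as Mdh2, at 821.82 in stem and 815.29 in adult cells.

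**Figure D1:**
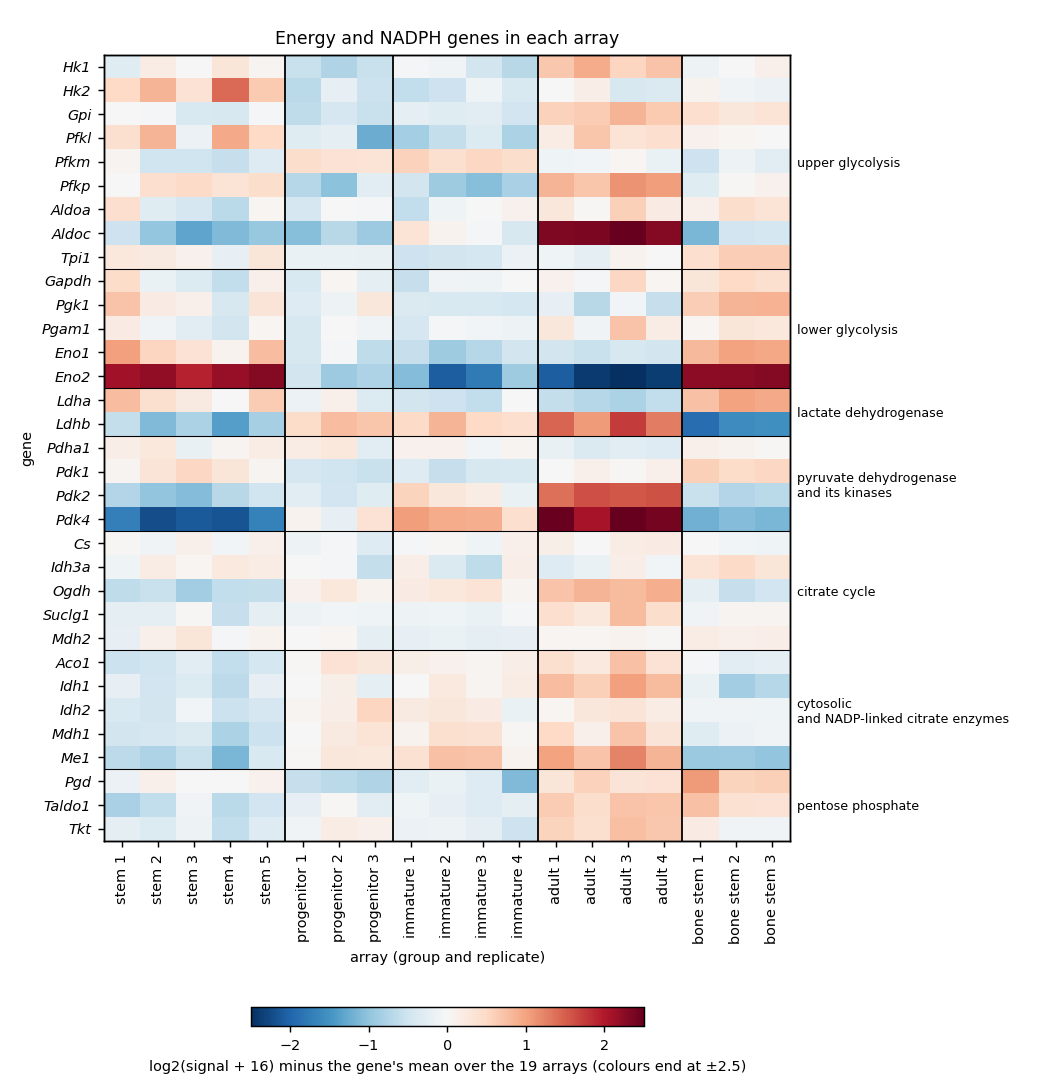
Each of the 33 measured genes (rows, by pathway) in each of the 19 arrays (columns, by group), as log2(signal + 16) minus the gene's mean over all arrays, with red above and blue below that mean. Eno2 is high in all 5 stem and all 3 bone stem arrays, Aldoc and Pdk4 are high in the 4 adult arrays, and most genes of glycolysis are pale or blue in the progenitor and immature arrays.

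Sequence just before the start of 5 of these genes is shown, as examples chosen after their values were seen: the paralogs Ldha and Ldhb, which moved in opposite directions, the isoenzyme genes Eno2 and Aldoc, whose levels lay highest at opposite ends of the Leydig stages, and Me1 for the supply of NADPH. The windows are RefSeq promoters of build GRCr8, the 250 bases before the annotated start, 5′ to 3′ on the gene's strand. Capitals mark ACGTG or its reverse complement CACGT in the first 4 windows, and in Me1 TGACNNNGC, the core of the antioxidant response element. ACGTG is not the only form of the core of the hypoxia response element. GCGTG is another form and was neither marked nor counted. An ACGTG match also lies inside the E-box CACGTG, which counts as a match on both strands.
Ldha (chr1:106507842-106508091, plus strand): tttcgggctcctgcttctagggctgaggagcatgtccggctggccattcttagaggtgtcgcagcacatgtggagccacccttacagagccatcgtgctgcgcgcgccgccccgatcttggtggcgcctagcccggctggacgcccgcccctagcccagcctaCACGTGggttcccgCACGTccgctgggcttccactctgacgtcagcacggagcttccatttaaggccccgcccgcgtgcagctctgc
Ldhb (chr4:177177409-177177658, minus strand): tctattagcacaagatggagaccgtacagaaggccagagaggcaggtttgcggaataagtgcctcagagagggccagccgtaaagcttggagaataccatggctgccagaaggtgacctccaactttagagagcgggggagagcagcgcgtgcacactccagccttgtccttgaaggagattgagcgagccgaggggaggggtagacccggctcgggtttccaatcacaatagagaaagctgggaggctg
Eno2 (chr4:159267221-159267470, minus strand): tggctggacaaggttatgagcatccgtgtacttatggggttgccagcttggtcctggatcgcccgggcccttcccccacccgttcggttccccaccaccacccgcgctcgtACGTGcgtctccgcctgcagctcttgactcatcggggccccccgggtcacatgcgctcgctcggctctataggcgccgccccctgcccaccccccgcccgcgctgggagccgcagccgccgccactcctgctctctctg
Aldoc (chr10:63715294-63715543, plus strand): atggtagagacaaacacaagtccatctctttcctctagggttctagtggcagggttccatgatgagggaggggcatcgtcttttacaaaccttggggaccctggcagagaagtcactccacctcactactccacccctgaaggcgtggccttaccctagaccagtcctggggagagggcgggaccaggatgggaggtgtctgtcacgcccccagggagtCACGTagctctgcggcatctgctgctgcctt
Me1 (chr8:96540245-96540494, minus strand): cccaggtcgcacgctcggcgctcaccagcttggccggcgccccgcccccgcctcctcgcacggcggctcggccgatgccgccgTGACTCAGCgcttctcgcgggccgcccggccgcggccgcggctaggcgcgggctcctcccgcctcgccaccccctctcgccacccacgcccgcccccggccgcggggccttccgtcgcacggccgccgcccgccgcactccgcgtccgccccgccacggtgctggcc

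The Ldha window held 3 matches to ACGTG over both strands, 73 to 87 bases before the start, and 2 of them are the overlapping strands of the E-box. Ldhb held none. Eno2, whose level among the Leydig stages was highest in stem cells, and Aldoc, whose level was highest in adult cells, each held 1, at 139 and 31 bases before the start. Counted over the first listed window of each gene, 8 of the 33 members with a window in the table held ACGTG on either strand, and 16.6% of all 33469 windows of this length did. TGACNNNGC on either strand was found in 3 members (Me1, Idh1 and Mdh2) and in 10.1% of all windows. The uncounted GCGTG also occurs in the Ldha, Ldhb and Aldoc windows, so the counts of ACGTG do not cover all forms of the hypoxia core. A match is a run of letters and not a shown binding site.

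The first step set progenitor against stem Leydig cells, and the members split evenly in direction. Of 32, 11 were higher (34.4%) and 10 lower (31.2%) in progenitor cells, against 22.0% and 14.7% of all probe sets and 29.2% and 27.4% of the bright ones. By pathway, 5 of the 9 genes of upper glycolysis fell and 1 rose, and of 4 tested genes of lower glycolysis 2 fell. Of 5 enzymes that use citrate or malate in the cytosol or with NADP, 4 rose and 0 fell. The members' median log2 change was -0.05, against 0.08 over all probe sets. With each array centred on its median, which moves the median of all probe sets by -0.23 at this step, 8 members were higher and 12 lower.

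Both measured hexokinase genes were called lower, and of 3 phosphofructokinase genes 2 were called lower and 1 higher. Hexokinase traps glucose by phosphorylating it, and Hk1 is the form of most tissues while Hk2 is the inducible form of muscle and fat. Hk1 read 334.1, 289.5 and 335.3 in progenitor cells, against 402.8, 571.1, 504.3, 615.3 and 524.1 in stem cells, a log2 change of -0.67 ± 0.15 (limma adjusted p = 0.00153). Every progenitor array lay below every stem array. Hk2, a dim gene, read 9.1, 18.8 and 11.6 in progenitor cells and 40.2, 56.4, 35.1, 91.3 and 47.2 in stem cells, without overlap (log2 change -1.23 ± 0.21, limma adjusted p = 0.000108, and -0.60 with a pseudocount of 64). A second, dim probe set of Hk1 averaged 13.4 in progenitor and 5.5 in stem cells, and with the mean of both probe sets the 3 called changes of Hk1 among the Leydig stages lost their call (adjusted p to 0.641).

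Phosphofructokinase, which commits sugar to glycolysis, has 3 subunit genes, and they moved apart. Pfkl, the liver-type subunit, read 68.3, 73.3 and 28.1 in progenitor cells, against 121.5, 170.2, 77.6, 183.7 and 130.3 in stem cells. Pfkp, the platelet-type subunit, read 342.3, 273.5 and 474.8 in progenitor cells, against 565.2, 768.1, 795.8, 721.7 and 777.6 in stem cells. Both sets of arrays were separate, with log2 changes of -1.09 ± 0.23 (limma adjusted p = 0.000809) for Pfkl and -0.99 ± 0.17 (limma adjusted p = 0.000105) for Pfkp. Pfkm, the muscle-type subunit, went the other way and read 292.1, 275.2 and 273.8 in progenitor cells, against 221.7, 146.5, 144.7, 136.6 and 165.5 in stem cells (log2 change 0.75 ± 0.13, limma adjusted p = 0.000109). Gpi, the isomerase that follows hexokinase, fell by 0.35 ± 0.12 on the log2 scale (limma adjusted p = 0.0264), a call that 9 of 31 alternative settings did not keep, those without stem replicate 1, 2 or 5 or progenitor replicate 1 or 3 among them (log2 changes of -0.58 to -0.26, highest adjusted p 0.108). Aldoa, Aldoc and Tpi1 were not called at this step, with log2 changes of 0.03, 0.09 and -0.31.

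Lower glycolysis turned on the 2 enolase genes, whose enzymes make the phosphoenolpyruvate that pyruvate kinase uses. Eno2, the enolase of neurons, read 132.3, 92.3 and 104.2 in progenitor cells, against 864.8, 939.1, 761.6, 906.5 and 989.4 in stem cells. This was the largest fall among the members at this step, a log2 change of -2.86 ± 0.21 (limma adjusted p = 6.87e-10). Eno1, the enolase of most tissues, read 1463.7, 1872.5 and 1255.4 in progenitor cells, against 3965.6, 2845.5, 2509.5, 2078.1 and 3336.0 in stem cells (log2 change -0.92 ± 0.17, limma adjusted p = 0.000254). No progenitor array reached the lowest stem array for either gene. Pgk1 and Pgam1, the kinase and mutase between Gapdh and enolase, changed by -0.24 and -0.05 and were not called. A second bright probe set of Pgk1 averaged lower in progenitor cells, at 1154.2 against 1968.4 in stem cells. Gapdh, untested, averaged 2923.39 in progenitor and 3167.13 in stem cells, and its progenitor arrays (2532.3 to 3417.5) lay within the range of the stem arrays (2149.6 to 4555.5).

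The lactate dehydrogenase genes moved in opposite directions. Ldha encodes the subunit typical of muscle and other lactate-producing tissue and Ldhb the subunit typical of heart. Ldhb read 1710.3, 2121.0 and 2002.6 in progenitor cells, against 815.4, 564.6, 709.5, 468.4 and 687.3 in stem cells, with all progenitor arrays above all stem arrays (log2 change 1.58 ± 0.18, limma adjusted p = 3.86e-07). Ldha read 1647.1, 2009.8 and 1447.4 in progenitor cells, against 3134.7, 2444.1, 2136.2, 1821.0 and 2846.0 in stem cells. These ranges overlapped, since progenitor replicate 2 exceeded stem replicate 4, and the fall of 0.52 ± 0.17 on the log2 scale (limma adjusted p = 0.02) was lost in 6 of 31 alternative settings, among them those without stem replicate 5 or progenitor replicate 1 or 3 (log2 changes of -0.75 to -0.41, highest adjusted p 0.117).

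Of the pyruvate dehydrogenase genes, the kinases changed and the subunit did not pass the test. Pdk4, a kinase known to rise in fasting and fat oxidation, read 68.8, 52.5 and 86.4 in progenitor cells, against 8.3, 1.2, 2.6, 1.8 and 8.8 in stem cells, where it lay at the low end of the array's range (log2 change 2.05 ± 0.19, limma adjusted p = 2.59e-08). A second, dimmer probe set of Pdk4 averaged 17.0 in progenitor and 13.1 in stem cells, and the change, called in all settings, ranged over them from 0.95 with a pseudocount of 64 to 3.91 with a pseudocount of 1, with 1.12 for the mean of both probe sets. Pdk1, a kinase known as a target of hypoxia-inducible factor, read 94.3, 88.6 and 84.4 in progenitor cells, all below the 139.9, 170.2, 196.4, 166.5 and 138.8 in stem cells (log2 change -0.75 ± 0.12, limma adjusted p = 2.43e-05, and -0.45 with the mean of its 2 probe sets). Pdk2 rose by 0.45 ± 0.15 (limma adjusted p = 0.0239), a call lost in 6 of 31 alternative settings, also without stem replicate 2 or 3 or progenitor replicate 1 or 3 (0.23 to 0.55). Pdha1, the catalytic subunit of the complex, changed by -0.05 ± 0.12.

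In the citrate cycle Ogdh, a subunit of the oxoglutarate dehydrogenase complex, rose by 0.80 ± 0.11 (limma adjusted p = 5.01e-06), with means of 538.9 in progenitor and 302.1 in stem cells. Cs, Idh3a, Suclg1 and Mdh2, enzymes of the mitochondrial cycle, had log2 changes of -0.33 to 0.14 and were not called. The cytosolic aconitase Aco1 rose by 0.70 ± 0.12. The mitochondrial NADP-linked isocitrate dehydrogenase Idh2 read 1159.4, 1240.2 and 1614.7 in progenitor cells, against 850.9, 797.3, 1054.8, 763.7 and 822.1 in stem cells (log2 change 0.63 ± 0.14, limma adjusted p = 0.001). Mdh1, the cytosolic malate dehydrogenase, read 1704.2, 2014.4 and 2200.0 in progenitor cells, against 1257.0, 1283.6, 1339.3, 992.3 and 1185.6 in stem cells (log2 change 0.70 ± 0.15, limma adjusted p = 0.000745, and 1.49 with the mean of its 2 probe sets). The groups were separate for both genes.

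Among the enzymes that make NADPH in the cytosol, Me1 and Pgd moved in opposite directions at this step. Me1, malic enzyme, read 1141.3, 1369.1 and 1350.9 in progenitor cells, against 702.9, 647.1, 749.4, 495.4 and 849.4 in stem cells (log2 change 0.90 ± 0.17, limma adjusted p = 0.000242). Pgd, an NADPH-making enzyme of the pentose phosphate pathway, read 625.7, 581.8 and 554.2 in progenitor cells, against 850.0, 1028.8, 935.7, 938.5 and 1010.7 in stem cells (log2 change -0.68 ± 0.17, limma adjusted p = 0.00314). Neither gene's groups overlapped. Taldo1 and Tkt, which rearrange sugars in the branch of that pathway that makes no NADPH, rose by 0.38 ± 0.14 and 0.40 ± 0.14 (limma adjusted p = 0.0429 and 0.0251), calls lost in 13 and 7 of 31 alternative settings. Leaving out any 1 of stem replicates 1, 2, 4 and 5, progenitor replicates 1 and 2, immature replicate 2 or adult replicates 1 and 4 ended the call of Taldo1 (0.16 to 0.51 over all settings), and leaving out stem replicate 4 or progenitor replicate 2 or 3 that of Tkt (0.17 to 0.53). Idh1, the cytosolic NADP-linked isocitrate dehydrogenase, had a log2 change of 0.35 ± 0.16 and was not called (limma adjusted p = 0.0912).

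Markers listed for other cell types moved with this step. All 5 measured red blood cell markers were higher in progenitor cells, with sums of 3461.7 to 5393.8 against 10.6 to 55.4 in stem cells. Of the leukocyte markers 8 of 10 were higher, and all 7 smooth muscle markers were lower, with sums of 2001.8 to 2242.3 in progenitor and 7409.2 to 16107.4 in stem cells. Of 10 genes of dividing cells 8 were higher, and of 7 endothelial markers 6, with sums of 899.5 to 1824.0 in progenitor and 248.5 to 424.4 in stem cells. Sertoli cell markers were higher in 3 of 6, with sums of 1062.3 to 1319.5 in progenitor and 124.8 to 173.5 in stem cells. Most of the progenitor sum came from Inha (652.9 in progenitor, 49.45 in stem cells) and Cldn11 (364.6 and 9.717). Amh was dim (15.39 and 3.837), and Wt1, Dhh and Gata1 were not called. Germ cell markers were higher in 2 of 9, with sums of 405.9 to 572.4 in progenitor and 270.6 to 349.2 in stem cells. The part of these cells in the changes of the members was not tested.

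**Figure D2:**
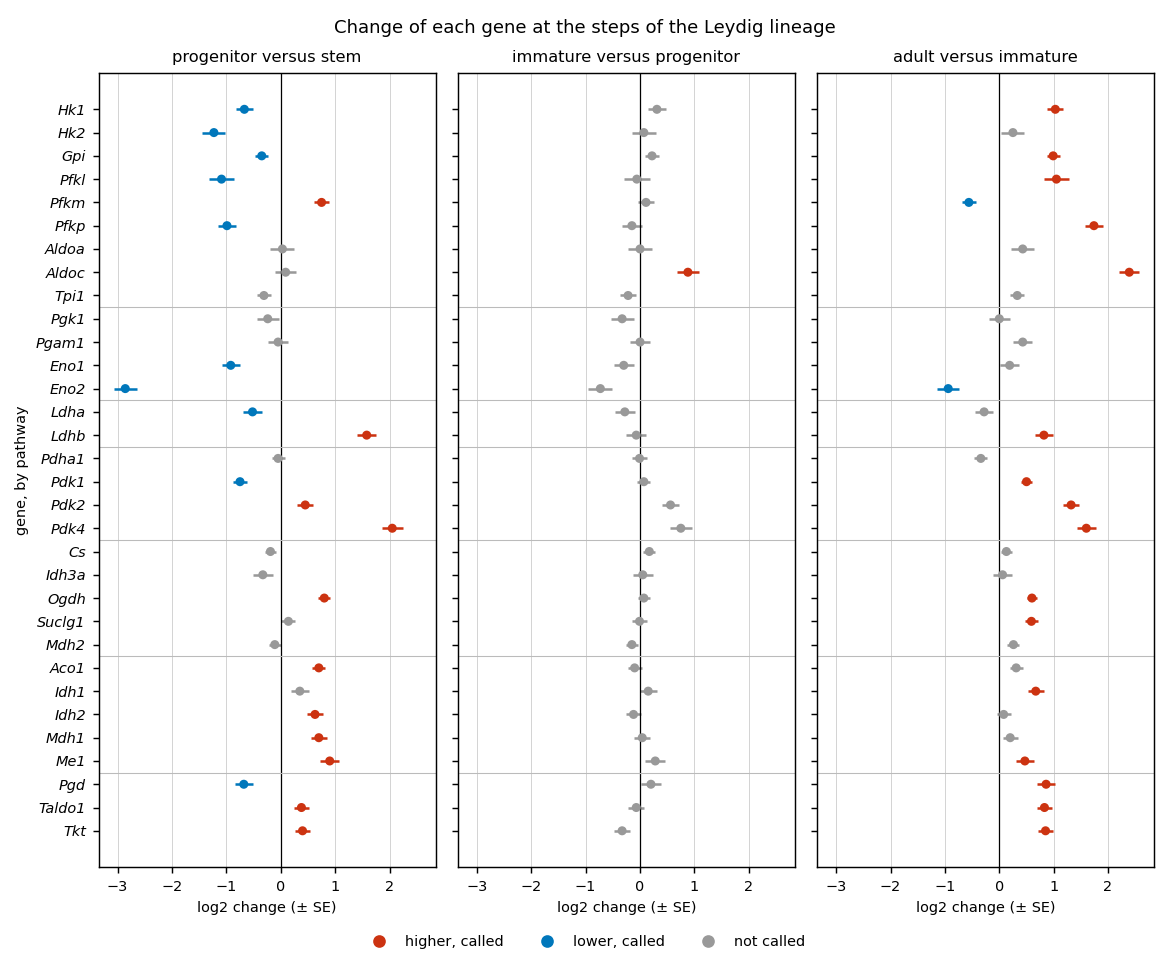
Log2 change with its SE (horizontal axis) of each of the 32 tested genes (vertical axis, by pathway) at the 3 steps between neighbouring Leydig stages, red where called higher in the later stage, blue where called lower and grey where not called. Eno2 has the largest fall at the first step (-2.86), Aldoc is the 1 gene called at the second (0.88), and 16 of the 18 genes called at the third are higher.

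Between immature and progenitor cells few members changed. Aldoc was the 1 member that limma called higher and 0 were lower, against 0.876% and 0.425% of all probe sets, and 1.79% and 0.515% of the bright ones. At an unadjusted p under 0.05, 2 members were lower and 3 higher. Aldoc, the aldolase of brain, read 437.3, 361.7, 335.4 and 255.0 in immature cells, against 155.4, 206.3 and 175.6 in progenitor cells, without overlap (log2 change 0.88 ± 0.20, limma adjusted p = 0.027). The call was lost in 9 of 31 alternative settings, among them those without any 1 of the progenitor replicates or of immature replicates 1 to 3 (log2 changes of 0.75 to 1.01, highest adjusted p 0.155). Pdk4 (log2 change 0.75 ± 0.20, limma adjusted p = 0.0701) and Pdk2 (0.56 ± 0.16, limma adjusted p = 0.0935) had all immature arrays above all progenitor arrays and missed the threshold. Without immature replicate 4 the count of higher members was 3. Germ cell markers were higher in 5 of 9 at this step, with sums of 680.7 to 1341.5 in immature and 405.9 to 572.4 in progenitor cells. Of 10 genes of dividing cells 3 were lower, with sums of 1653.2 to 2671.0 in immature and 2792.5 to 3086.9 in progenitor cells. Endothelial markers were lower in 2 of 7, with sums of 252.6 to 769.5 in immature and 899.5 to 1824.0 in progenitor cells. The part of these cells in the change of Aldoc was not tested.

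The last step, adult against immature cells, ran mostly in 1 direction. Of 32 members 16 were higher in adult cells (50%) and 2 lower (6.2%), against 8.05% and 13.0% of all probe sets and 17.2% and 20.1% of the bright ones. The median log2 change was 0.45 for the members and -0.07 for all probe sets. Upper glycolysis gave 5 higher and 1 lower of 9, pyruvate dehydrogenase and its kinases 3 higher of 4, and the pentose phosphate members 3 higher of 3. A further kinase outside the members, Pdk3, was called lower (-1.31 ± 0.20). Lower glycolysis gave 0 higher and 1 lower of 4. Centring each array on its median moves the median of all probe sets by 0.18 at this step, and then 21 members were higher and 1 lower.

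The largest rise was that of Aldoc, which read 1796.3, 1807.6, 2099.4 and 1746.1 in adult cells, against 437.3, 361.7, 335.4 and 255.0 in immature cells, a log2 change of 2.39 ± 0.18 (limma adjusted p = 1.52e-08). Aldoa, the aldolase of muscle and most tissues, read 4030.3, 3394.9, 4988.3 and 3833.0 in adult cells and 2145.2, 3085.5, 3279.0 and 3593.0 in immature cells, ranges that overlapped, and was not called (0.43 ± 0.21, limma adjusted p = 0.16). Aldoc thus moved and Aldoa missed the threshold on the same arrays. The difference between the 2 genes was not tested.

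Of the 10 members called lower at the first step, 6 were called higher at the last (Hk1, Gpi, Pfkl, Pfkp, Pdk1 and Pgd). Of the others 1 was lower again (Eno2), and Hk2, Eno1 and Ldha were not called. The share of all probe sets called in this order was not counted, so these 6 are described without a background. The fall of Gpi, both calls of Hk1 and the rise of Pdk1 were each lost in at least 1 of 31 settings. Pfkp read 1044.9, 926.6, 1259.4 and 1197.1 in adult cells, against 410.8, 299.1, 262.6 and 316.8 in immature cells (log2 change 1.74 ± 0.17, limma adjusted p = 2.66e-07). Pfkl read 102.1, 152.3, 116.0 and 122.9 in adult cells and 42.0, 52.5, 66.3 and 44.3 in immature cells (1.05 ± 0.23, limma adjusted p = 0.0018). Hk1 read 799.8, 968.6, 731.5 and 826.3 in adult cells, against 490.0, 470.8, 359.8 and 301.2 in immature cells (1.03 ± 0.15, limma adjusted p = 3.83e-05). In each of the 3 genes every adult array lay above every immature array. Gpi rose by 0.99 ± 0.12, to a mean of 2298 ± 195 in adult cells, against 1148 ± 85.5 in immature cells (SD, n = 4 each).

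Pfkm and Eno2 were the 2 members called lower. Pfkm read 195.8, 200.4, 218.5 and 186.4 in adult cells and 324.5, 284.3, 311.0 and 294.6 in immature cells, the reverse of Pfkl and Pfkp on the same arrays (log2 change -0.56 ± 0.13, limma adjusted p = 0.00265). Median centring and the mean of all probe sets each ended that call (highest adjusted p 0.344). Eno2 read 32.9, 22.7, 14.9 and 23.4 in adult cells and 80.2, 33.3, 43.7 and 94.9 in immature cells, with the highest adult array just under the lowest immature array (-0.94 ± 0.20, limma adjusted p = 0.00168, and -0.51 with a pseudocount of 64). Hk2 stayed dim, at 23.6, 28.7, 14.1 and 15.1 in adult and 10.1, 12, 21.2 and 14.6 in immature cells, and was not called. Eno1 read 1411.2, 1314.8, 1467.3 and 1414.7 in adult cells and 1296.8, 1039.7, 1185.8 and 1418.7 in immature cells, overlapping sets with no call.

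Where pyruvate is handled, Ldhb, Pdk2 and Pdk4 rose, and Pdk1 was called higher with its brighter probe set. Ldhb read 3427.2, 2620.8, 4198.8 and 3029.2 in adult cells, against 1740.7, 2254.3, 1762.2 and 1653.0 in immature cells (log2 change 0.82 ± 0.17, limma adjusted p = 0.00129). Ldha read 1206.2, 1110.7, 1054.8 and 1195.4 in adult cells and 1332.0, 1277.4, 1188.0 and 1814.8 in immature cells, and its -0.28 ± 0.17 was not called (limma adjusted p = 0.28). Pdk4 read 425.8, 317.1, 533.9 and 399.9 in adult cells, against 148.6, 135.7, 133.5 and 90.2 in immature cells (1.60 ± 0.18, limma adjusted p = 2.26e-06). The lowest adult array of Pdk4 was above every immature array, and a second probe set of the gene averaged 99.5 in adult and 34.2 in immature cells. Pdk2 read 331.7, 393.6, 378.9 and 386.8 in adult cells, against 181.5, 147.7, 135.6 and 102.8 in immature cells (1.32 ± 0.15, limma adjusted p = 1.69e-06). Pdk1 read 132.6, 145.6, 135.4 and 146.3 in adult cells and 102.8, 83.0, 95.8 and 96.9 in immature cells (0.50 ± 0.11, limma adjusted p = 0.0027). A second probe set of Pdk1 averaged 114.3 in adult and 111.8 in immature cells, and with the mean of both the call was lost (0.26, limma adjusted p = 0.111). Pdha1, the subunit that these kinases phosphorylate, missed the threshold in the other direction, at 727.0 ± 39.2 in adult and 921.6 ± 53.3 in immature cells (SD, n = 4 each, log2 change -0.34 ± 0.12, limma adjusted p = 0.0544).

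In the citrate cycle 2 of 5 genes rose, Ogdh by 0.60 ± 0.10 and Suclg1, a subunit of succinyl-CoA ligase, by 0.59 ± 0.12 (limma adjusted p = 0.000295 and 0.00155). Cs, Idh3a and Mdh2 had log2 changes of 0.13, 0.06 and 0.26. Idh1 read 2455.4, 2159.8, 2946.9 and 2477.7 in adult cells, against 1437.0, 1699.1, 1497.3 and 1633.7 in immature cells (0.67 ± 0.15, limma adjusted p = 0.00294). A second, dim probe set of Idh1 averaged 9.2 in adult and 9.8 in immature cells, and with the mean of both the call was lost (0.32, limma adjusted p = 0.0963). Its mitochondrial counterpart Idh2 read 1153.7, 1358.6, 1393.9 and 1261.0 in adult and 1303.9, 1349.3, 1279.3 and 980.9 in immature cells, overlapping ranges without a call. The same held for Mdh1, at 2440.0, 1891.7, 2848.6 and 2166.7 in adult and 1825.1, 2275.2, 2248.9 and 1764.8 in immature cells. Mdh2 read 808.8, 809.1, 836.4 and 806.8 in adult and 674.4, 701.8, 664.5 and 676.9 in immature cells, separate sets whose difference of 0.26 ± 0.11 was not called (limma adjusted p = 0.0934).

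All 3 pentose phosphate members rose. Pgd read 1163.3, 1417.6, 1179.3 and 1216.2 in adult cells, against 778.9, 838.7, 749.8 and 430.8 in immature cells (log2 change 0.86 ± 0.16, limma adjusted p = 0.000701). Taldo1 read 1067.9, 930.3, 1132.5 and 1125.1 in adult and 637.0, 590.3, 545.2 and 589.1 in immature cells (0.83 ± 0.14, limma adjusted p = 0.000186), and Tkt rose by 0.85 ± 0.13 (limma adjusted p = 7.72e-05). No adult array of these 3 genes lay within the immature range. Of the same pathway, Pgls (0.31 ± 0.16), Rpia (0.38 ± 0.19) and Rpe (-0.39 ± 0.18), listed with the neighbours, were not called. Me1 read 2260.7, 1850.2, 2663.4 and 2017.9 in adult cells and 1457.2, 1864.9, 1850.9 and 1184.9 in immature cells, which overlapped. Its call (0.47 ± 0.16, limma adjusted p = 0.0454) was lost in 15 of 31 alternative settings (log2 changes of 0.19 to 0.68, highest adjusted p 0.425), 11 of which leave out 1 array of any group, while a second probe set of Me1 averaged 2106.7 in adult and 1163.5 in immature cells.

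**Figure D3:**
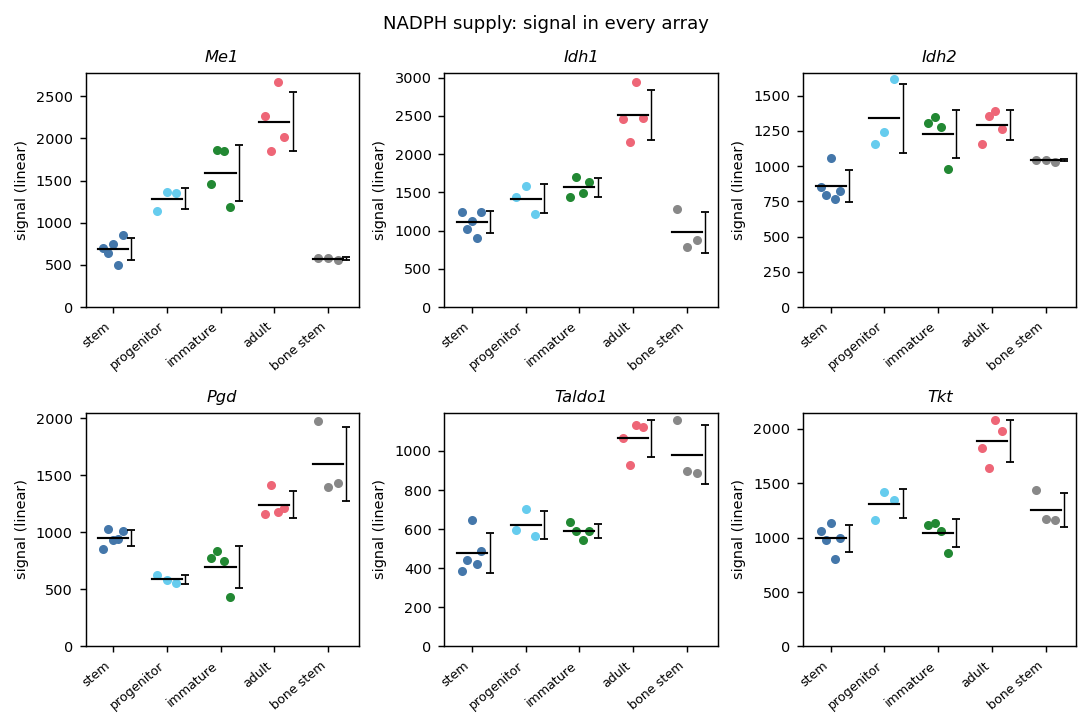
Signal on a linear scale (vertical axis) of 6 genes of NADPH supply in every array of the 5 groups (horizontal axis), with the mean as a bar and the SD beside it. Idh1, Pgd, Taldo1 and Tkt have all 4 adult arrays above all immature arrays, Me1 climbs over the 4 Leydig stages with overlap between immature and adult cells, and Idh2 overlaps there too.

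At this step all 10 genes of dividing cells were lower in adult cells, with sums of 283.6 to 405.7 against 1653.2 to 2671.0 in immature cells. Red blood cell markers fell in 4 of 5, with sums of 270.4 to 702.7 in adult and 2491.5 to 5361.6 in immature cells. Leukocyte markers, whose sums are given above, fell in 5 of 10 and rose in 1. Endothelial markers rose in 6 of 7, with sums of 540.7 to 2802.6 in adult and 252.6 to 769.5 in immature cells. Germ cell markers (9 measured) summed to 1527.8 to 3378.4 in adult and 680.7 to 1341.5 in immature cells, with 3 called higher and 2 lower. The 4 measured germ cell isoforms of these same pathways (such as Ldhc and Gapdhs) summed to 133.3 to 299.5 in adult and 79.6 to 215.8 in immature cells. The part of other cells in the changes of the members was not tested.

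Set end to end, adult against stem Leydig cells, 16 of 32 members were higher (50%) and 6 lower (18.8%), against 21.3% and 20.5% of all probe sets and 32.7% and 34.8% of the bright ones. The median log2 change was 0.53 for the members and 0.02 for all probe sets. This comparison shares its arrays with the steps above. All 5 cytosolic or NADP-linked citrate enzymes were higher. Upper glycolysis gave 4 higher and 1 lower of 9. Of lower glycolysis 3 of 4 were lower and 0 higher, Eno1, Eno2 and Pgk1. The call of Pgk1 (-0.57 ± 0.18) was lost without adult replicate 2 or 4 (-0.91 to -0.44 over all settings). Markers of other cells moved here too. In adult cells 9 of 10 leukocyte, 8 of 9 germ cell, 6 of 7 endothelial and 4 of 6 Sertoli cell markers were higher. All 10 genes of dividing cells and all 7 smooth muscle markers were lower, and red blood cell markers had 2 higher and 1 lower of 5. The part of these cells in the changes of the members was not tested.

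The changes of Eno2 and Pdk4 were the widest among the members, and their order depends on the pseudocount. Eno2 stood at 23.48 ± 7.38 in adult cells (n = 4) and 892.3 ± 86.1 in stem cells (SD, n = 5), a log2 change of -4.54 ± 0.19 (limma adjusted p = 7.75e-14). Pdk4 changed in the other direction, at 419.2 ± 89.4 in adult and 4.551 ± 3.72 in stem cells (4.40 ± 0.17, limma adjusted p = 2.95e-14). With a pseudocount of 1 the log2 changes were -5.24 for Eno2 and 6.49 for Pdk4, and with 64 they were -3.45 and 2.80. The second probe set of Pdk4 averaged 99.5 in adult and 13.1 in stem cells, and the mean of both gave 3.20. Aldoc averaged 1862 ± 160 in adult and 169.4 ± 40.6 in stem cells (3.36 ± 0.17). Ldhb averaged 3319 ± 673 in adult and 649.0 ± 135 in stem cells and Pdk2 372.8 ± 28 in adult and 61.71 ± 12.4 in stem cells, and each had a log2 change of 2.33. Pdk2 read 64.9, 51.7, 47.3, 66.5 and 78.3 on the stem arrays, far under all adult arrays. Ldha fell by 1.08 ± 0.16 and Eno1 by 1.03 ± 0.16 on the log2 scale, without overlap between the groups.

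Of the genes of NADPH supply, Me1 rose by 1.66 ± 0.16, Idh1 by 1.17 ± 0.14 (0.70 with the mean of its 2 probe sets), Taldo1 by 1.15 ± 0.13 and Tkt by 0.92 ± 0.12 in adult against stem cells. Idh2 rose by 0.59 ± 0.13. Pgd, after its fall and rise, had a log2 change of 0.38 ± 0.16 and was not called (limma adjusted p = 0.0585), although all adult arrays lay above all stem arrays. Ogdh rose by 1.47 ± 0.10, Mdh1 by 0.93 ± 0.13, Aco1 by 0.90 ± 0.11 and Suclg1 by 0.72 ± 0.12. Cs, Idh3a and Mdh2 had log2 changes of -0.21 to 0.11.

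**Figure D4:**
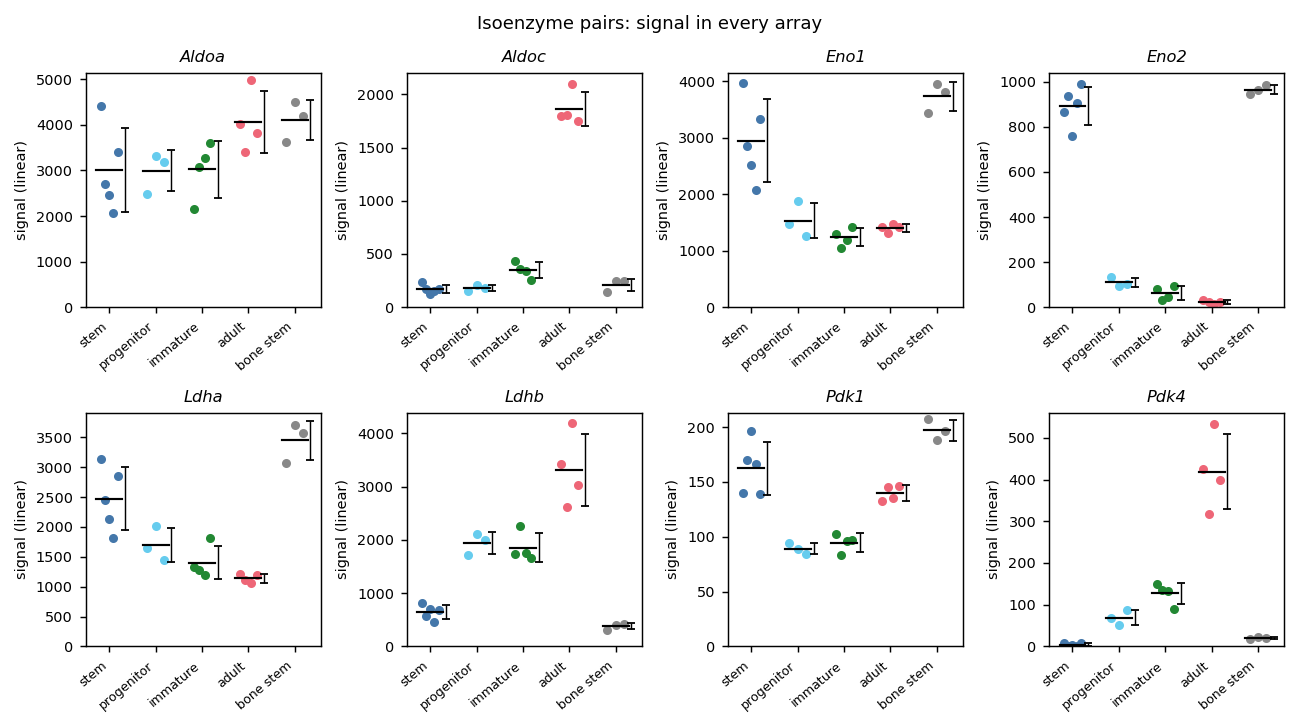
Signal on a linear scale (vertical axis) of 8 genes in 4 pairs of enzymes of one step, in every array of the 5 groups (horizontal axis), with the mean as a bar and the SD beside it. Aldoc, Ldhb and Pdk4 are highest in the 4 adult arrays, and Eno1, Eno2 and Ldha are higher in all stem and bone stem arrays than in any adult array.

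How a pair of enzymes of one step shifted against each other can be read within an array, where the scale of that array largely cancels for bright genes. For signals near the added 16 it does not cancel, and the movement is made smaller and depends on the pseudocount. This holds for Hk2, for Pdk4 in stem cells and for Eno2 in adult cells. Signals of different probe sets are not amounts, so only the movement of such a difference between groups is described, with no test. Ldha minus Ldhb, in log2(signal + 16), averaged 1.90 ± 0.20 in stem cells and, at the following 3 stages, -0.20 ± 0.23, -0.41 ± 0.40 and -1.51 ± 0.33, with 3.14 ± 0.08 in bone stem cells. Stem arrays (1.57 to 2.08) lay above all later Leydig arrays (-1.98 to 0.13). Pdk1 minus Pdk4 dropped as well, with 3.13 ± 0.43, 0.32 ± 0.32, -0.35 ± 0.31 and -1.46 ± 0.34 from stem to adult cells. Aldoa minus Aldoc held at 4.00 ± 0.23 and 3.94 ± 0.10 in stem and progenitor cells and was 3.06 ± 0.62 in immature and 1.11 ± 0.14 in adult cells. Eno1 minus Eno2 widened, with 1.68 ± 0.36, 3.62 ± 0.44, 4.05 ± 0.38 and 5.18 ± 0.30 from stem to adult cells.

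The other pairs moved less. Hk1 minus Hk2 averaged 2.98 ± 0.29, 3.54 ± 0.35, 3.78 ± 0.49 and 4.55 ± 0.18 from stem to adult cells. Mdh1 minus Mdh2 averaged 0.55 ± 0.19 in stem cells and 1.36 ± 0.30, 1.55 ± 0.19 and 1.48 ± 0.23 in the later stages. Idh1 minus Idh2 averaged 0.37 ± 0.20, 0.09 ± 0.43, 0.35 ± 0.26 and 0.94 ± 0.20, so that the adult arrays stood highest on average, with overlap against immature cells. Pfkl minus Pfkp averaged -2.32 ± 0.49, -2.42 ± 0.93, -2.33 ± 0.47 and -3.01 ± 0.36, within the spread of its arrays.

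**Figure D5:**
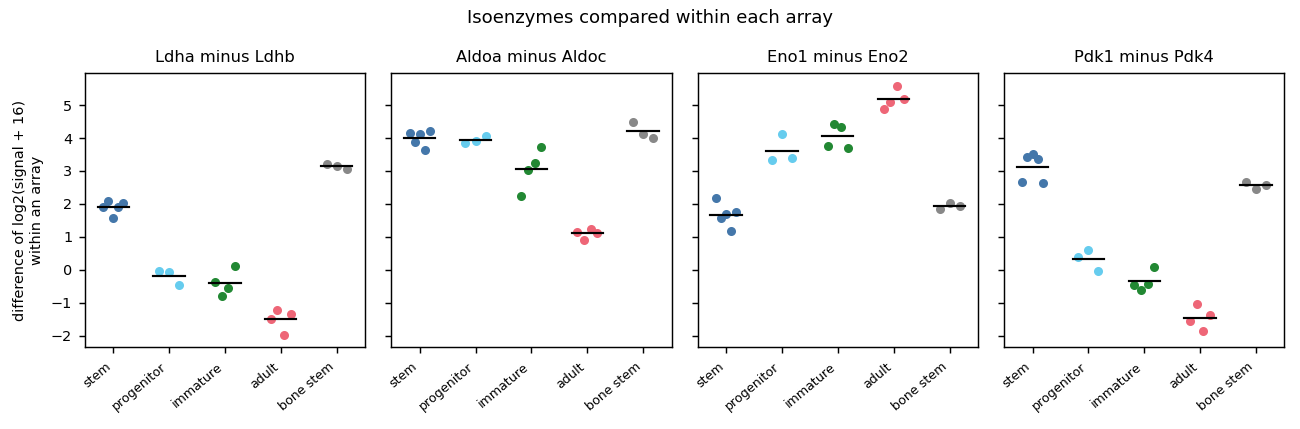
Difference of log2(signal + 16) between 2 enzymes of one step within each array (vertical axis), in the 5 groups (horizontal axis), with the group mean as a bar. Ldha minus Ldhb and Pdk1 minus Pdk4 drop from stem to adult cells, Aldoa minus Aldoc drops late, and Eno1 minus Eno2 climbs. The level of a difference has no meaning by itself, since probe sets differ in brightness.

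Stem Leydig cells were also set against bone stem cells, a second kind of stem cell. Of 32 members 2 were higher (6.2%) and 7 lower (21.9%) in stem Leydig cells, against 9.79% and 8.73% of all probe sets and 16% and 16.2% of the bright ones. Quantile normalization left 2 higher and 4 lower, and array quality weights gave 5 higher and 17 lower. The members' median log2 change was -0.26, against 0.05 for all probe sets. Hk2, at 40.2, 56.4, 35.1, 91.3 and 47.2 in stem Leydig cells against 26.5, 21.8 and 20.0 in bone stem cells (log2 change 0.80 ± 0.21, limma adjusted p = 0.0109), and Ldhb, at 468.4 to 815.4 in stem Leydig cells against 317.5, 404.8 and 415.5 in bone stem cells (0.74 ± 0.18, limma adjusted p = 0.00497), were the 2 higher members, both without overlap. The call of Hk2 was lost without bone stem replicate 3 (0.43 to 1.14 over all settings).

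Taldo1 was the member with the largest fall, at 385.2, 441.7, 648.9, 422.9 and 490.9 in stem Leydig cells and 1156.5, 898.8 and 887.9 in bone stem cells (log2 change -1.03 ± 0.14, limma adjusted p = 2.54e-05). Pgd had 850.0 to 1028.8 in stem Leydig cells and 1973.1, 1399.4 and 1430.2 in bone stem cells (-0.72 ± 0.17, limma adjusted p = 0.00436). Gpi had 1411.2, 1377.5, 1094.0, 1074.1 and 1370.0 in stem Leydig cells and 1924.3, 1736.2 and 1821.8 in bone stem cells (-0.53 ± 0.12, limma adjusted p = 0.00334). For these 3 genes the groups were separate. Pdk4 was also called lower in stem Leydig cells (-0.83 ± 0.19, limma adjusted p = 0.0034), at low signals in both groups. That call was lost with a pseudocount of 64 (-0.30, limma adjusted p = 0.124) and with the mean of both probe sets (-0.43), and the second probe set averaged 13.1 in stem Leydig and 13.9 in bone stem cells. The falls of Tpi1 (-0.42), Pgk1 (-0.59) and Ldha (-0.50) were lost in 7, 13 and 19 of 31 alternative settings, each also without stem replicate 4 or bone stem replicate 2 or 3. Over all settings they lay at -0.51 to -0.05, -0.72 to -0.22 and -0.59 to -0.09. The high leukocyte sums of the bone stem cells and their higher 3' to 5' ratios, given above, move with this comparison, and their part in it was not tested.

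Eno2 was bright in both kinds of stem cell, at 892.3 ± 86.1 in stem Leydig (n = 5) and 964.7 ± 18.9 in bone stem cells (SD, n = 3, log2 change -0.12 ± 0.21). Eno1 changed by -0.37 ± 0.17 and Pdk1 by -0.27 ± 0.12, and none of the 3 was called. A miss of the threshold does not show equality. Idh1 read 1246.0, 1026.8, 1127.9, 910.3 and 1239.0 in stem Leydig cells and 1281.4, 781.3 and 871.8 in bone stem cells, and Me1 read 581.5, 584.6 and 555.7 in bone stem cells, within the stem Leydig range, neither of them called.

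Neighbouring genes were listed too, 88 of them with 79 tested, in 8 groups. Most are lists of these or linked pathways, but those of hypoxia-inducible and NRF2-dependent genes are not. At the first step 24 were higher (30.4%) and 25 lower (31.6%) in progenitor cells. The shares were 22.0% and 14.7% of all probe sets and 29.2% and 27.4% of the bright ones. Of the 25 lower genes, 9 came from the hypoxia list and 4 from the NRF2 list, and of the 24 higher genes 0 and 2. At the last step 29 were higher (36.7%) and 6 lower (7.59%) in adult cells. The shares there were 8.05% and 13.0% of all probe sets and 17.2% and 20.1% of the bright ones. The counts of the single lists below stand against these same shares. Glucose and lactate transport fell in 4 and rose in 2 of 8 genes in progenitor cells. Slc16a3, the lactate exporter MCT4, averaged 11.99 in progenitor and 897.2 in stem cells (log2 change -5.01 ± 0.19), and Slc2a3, the glucose transporter GLUT3, 33.48 in progenitor and 543.9 in stem cells (-3.49 ± 0.18). Slc16a1, the lactate transporter MCT1, rose by 0.91 ± 0.20. At the last step Slc2a3 fell by 1.12 ± 0.17 on the log2 scale, and Bsg, the chaperone of the lactate transporters, rose by 0.89 ± 0.29.

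Of 9 tested genes of the citrate cycle outside the members, 7 rose and 0 fell at the first step, and 7 rose and 0 fell at the last. Idh3g, a regulatory subunit of the NAD-linked isocitrate dehydrogenase, rose by 1.32 ± 0.12 and Suclg2 by 1.11 ± 0.17 in progenitor cells. In adult cells Suclg2 rose by 0.80 ± 0.16 and Sdhb, a subunit of succinate dehydrogenase, by 0.73 ± 0.13. Of 10 genes of the pyruvate dehydrogenase complex and carboxylase, 3 rose and 0 fell at the first step (Pc, pyruvate carboxylase, by 0.71 ± 0.19 and Pdhx by 0.50 ± 0.15). At the last step 2 rose and 2 fell, with Pdk3, the remaining kinase, at -1.31 ± 0.20 in the reverse direction of Pdk1, Pdk2 and Pdk4, and Mpc2, a subunit of the mitochondrial pyruvate carrier, at -0.81 ± 0.19.

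Of 10 genes listed with the other NADPH enzymes, 5 rose and 3 fell in progenitor cells, and 4 rose and 0 fell in adult against immature cells. The list includes Pgls, Rpia and Rpe of the pentose phosphate pathway, which make no NADPH themselves. The largest changes in progenitor cells were those of Aldh1l1 (2.61 ± 0.19) and Me2 (-2.48 ± 0.22), and in adult against immature cells those of Me3 (1.54 ± 0.19) and Aldh1l1 (1.49 ± 0.19). Aldh1l1, which makes NADPH in folate metabolism, averaged 25.14 in stem, 294.1 in immature and 825.2 in adult cells, with a log2 change of 4.36 ± 0.18 in adult against stem cells. The malic enzymes split. Me3, a mitochondrial NADP-linked form, averaged 473.4 in adult and 39.43 in stem cells (3.16 ± 0.18), and Me2, the mitochondrial form that prefers NAD, 10.61 in adult and 171.3 in stem cells (-2.82 ± 0.20).

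The list of other glycolysis enzymes and regulators had 3 higher and 2 lower of 11 in progenitor cells, led by Pgm1 (-2.40 ± 0.24) and by Bpgm, which makes bisphosphoglycerate in red blood cells (1.54 ± 0.16). The red cell markers, whose sums are given above, rose at the same step and fell in 4 of 5 at the last. There Bpgm was not called, at 973.7 in adult and 1005 in immature cells (-0.03 ± 0.15). The part of red cells in the change of Bpgm was not tested. In adult against immature cells 4 genes of this list rose and 0 fell, led by Pfkfb3, an activator of phosphofructokinase through its product (1.14 ± 0.18), and Pgm1 (0.66 ± 0.23). Gluconeogenesis and glycogen genes had 2 higher and 3 lower of 9 at the first step, with Gys1, glycogen synthase, at -1.92 ± 0.13 and Pck2 at -1.49 ± 0.20. At the last step 3 rose and 1 fell, with Fbp2 at 1.41 ± 0.19 and Gys1 at 0.96 ± 0.12.

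Of 13 genes listed as hypoxia-inducible, 9 fell and 0 rose in progenitor against stem cells, led by Adm (-2.52 ± 0.24) and P4ha1 (-1.99 ± 0.19). The list includes Hif1a and Epas1, genes of subunits of hypoxia-inducible factor itself, neither of them called at this step. Many glycolysis genes are known targets of hypoxia-inducible factor too. At this step Eno1, Eno2, Ldha, Pdk1, Hk1 and Hk2 fell, and Pfkfb4 rose by 0.93 ± 0.16. Aldoa (0.03), Pgk1 (-0.24 with its brightest probe set), Pgam1 (-0.05) and Tpi1 (-0.31) were not called. The relation between the lists was not tested. In adult against immature cells 5 genes of the hypoxia list rose, Hif1a (0.69 ± 0.15) among them, and 2 fell. The largest changes were those of Ndrg1 (-1.03 ± 0.16) and Bnip3 (0.99 ± 0.11). Of 9 genes known as NRF2-dependent, 4 fell and 2 rose in progenitor cells, with Nqo1 at -3.79 ± 0.19 and Hmox1 at -1.96 ± 0.17 while Me1 rose. At the last step 2 rose and 0 fell, Hmox1 by 1.77 ± 0.16 and Srxn1 by 0.71 ± 0.25. In stem Leydig against bone stem cells the neighbours had 10 higher (12.7%) and 21 lower (26.6%) of 79. The shares were 9.79% and 8.73% of all probe sets and 16% and 16.2% of the bright ones. The largest changes in the hypoxia list were those of Epas1 (2.5 ± 0.43) and Ndrg1 (-1.64 ± 0.17), and in the NRF2 list that of Hmox1 (-2.06 ± 0.17).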

How the data were processed

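Arrays of 19 samples were analysed from the deposited table of signal intensities on a linear scale, which the submitters' processing notes credit to MAS5 and GCOS without versions. The table was scaled by the authors and was used as deposited. It holds 31099 probe sets. The 57 control probe sets were left out, which left 31042, of which 20826 have 1 gene symbol in the platform annotation, 436 several and 9780 none. Detection calls were not used, so low signals have no tested floor, and the number of arrays limits the precision.

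Signals were transformed to log2(signal + 16), and all arrays entered 1 limma model (limma 3.58.1, R 4.3.3) with 5 group means, moderated statistics with an intensity trend, two-sided tests and Benjamini-Hochberg adjustment over all 31042 probe sets. The limma adjusted p values in the text are from this model. Tables were handled in Python 3.11.15 (pandas 2.3.3) and plots made with matplotlib 3.10.9. The fit was tested on simulated data. The members and all gene lists were chosen with earlier results of these data known. Values in every sample are given for the called members with the 3 largest rises and falls of a comparison (groups not overlapping, brighter group at or above the median probe set), for the isoenzyme pairs, and for Me1, Idh1, Pgd and Ldha. Of a neighbour list, the called genes with the 2 largest changes are named, and a few others were chosen after their values were seen. Promoter windows are from RefSeq (GRCr8).

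The alternatives changed 1 choice at a time: quantile normalization or median centring of the arrays, 1 or 64 as pseudocount, a filter on the lowest 40% of probe sets, a fit without trend, array weights, a model of the compared groups alone, a block for the replicate number, averaging a gene's probe sets, a 2-fold minimum, dropping each array, dropping the 2 arrays that stand apart (progenitor replicate 3 and immature replicate 4), and merging the closest pairs of arrays.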

Additional observations from a re-analysis of the deposited data

Results flagged for a closer look

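In 99 gene and group combinations with at least 4 arrays, 7 had 1 array far from the others of its group, where chance alone gives about 1 in 20. Pfkp in stem replicate 1 was low at 565.2, against 721.7 to 795.8 on the other stem arrays. Ogdh in stem replicate 3 was low at 257.8, against 307.0 to 323.2. Gapdh in immature replicate 1 was low at 2209.0, against 3063.1 to 3258.1, and Pdha1 in immature replicate 3 was low at 842.9, against 934.5 to 954.5. Immature replicate 4 was low for Idh2 at 980.9, against 1279.3 to 1349.3, and for Pgd at 430.8, against 749.8 to 838.7. Mdh2 in adult replicate 3 was high at 836.4, against 806.8 to 809.1, a narrow range. Without immature replicate 4 the log2 change of Pgd in adult against immature cells was 0.64, and 0.86 with it.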

How the results depend on the processing

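Of the calls in the report, 15 of 21 in progenitor against stem, 0 of 1 in immature against progenitor, 13 of 18 in adult against immature, 19 of 22 in adult against stem and 4 of 9 in stem against bone stem cells were kept in all 31 settings, a 2-fold minimum aside. With a 2-fold minimum, the counts of higher and lower members were 2 and 3, 0 and 0, 6 and 0, 8 and 3, and 0 and 1 in these comparisons. For immature against progenitor cells the count of higher members was 3 with quantile normalization, array quality weights or 2 arrays left out, 2 without the lowest 40% of probe sets or with the replicate block, and 0 with median centring, only the groups compared or the closest pairs averaged, and 0 to 3 with 1 array left out. The count of lower members there was 1 with weights or 2 arrays left out, and 0 to 1 with 1 array left out. In adult against immature cells the lower members were 4 with quantile normalization and 1 with median centring or the mean of all probe sets. In stem against bone stem cells the higher members were 5 with weights, 1 with the closest pairs averaged and 1 to 3 with 1 array left out. The lower members there were 17 with weights, 4 with quantile normalization, only the groups compared, the replicate block, the mean of all probe sets or the closest pairs averaged, and 4 to 9 with 1 array left out. Aldoa in progenitor against stem cells, uncalled at 0.03, was called at -0.26 with quantile normalization. The cause was not tested. Same-numbered arrays of different groups did not deviate together (33 pairs, median r = 0.03, 10 over 0.1), so the numbers were not taken to pair samples. Values near the array's floor, such as those of Pdk4 in stem cells and of Hk2, carry the least precision.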
